A study of Mus musculus with 212 samples.

Results

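The daily course of transcripts in mouse skin fibroblasts that lack the clock gene Bmal1 (symbol Arntl) was followed at 27 °C in 23 of the 212 libraries of a series on circadian rhythms without this gene. They are the libraries of the Bmal1-/- course at 27 °C except the library labelled CT14, whose expression matched the other genotype. The cells came from C57BL/6 skin, were grown to confluence, received 100 nM dexamethasone for 15 min to set their phase, and were then held in HEPES-buffered medium in constant darkness. Harvest began 48 h after dexamethasone and went on every 2 h from CT0 to CT46, where CT is the label of the time point in hours. Each time point is 1 library. The labels give 3 wells per time point and genotype, and do not say whether they were pooled or how many cell preparations were used, so p-values here measure the spread of libraries around the course. For comparison served wild-type cells at 27 °C (23 libraries, also without CT14) and Bmal1-/- cells at 32 °C and at 37 °C (24 libraries each), all with the same dexamethasone, medium and darkness.

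In the textbook clock, BMAL1 and its partner CLOCK switch on the Per and Cry genes through E-box sequences, and the PER and CRY proteins then shut BMAL1 and CLOCK off. A linked loop runs through the REV-ERB and ROR receptors, and factors such as DBP, TEF and HLF carry the rhythm to other genes. Fibroblasts are a standard model of such cellular rhythms, and dexamethasone, an agonist of the glucocorticoid receptor, brings the cells of a dish into step.

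Gene levels were deposited as FPKM, fragments per kilobase of transcript scaled to the number of mapped reads. The depth estimated from the steps of low values was 13.49 to 26.3 M reads per library, with a median of 21.88. It was 13.49 to 16.79 M from CT32 to CT38 and 15.67 M at CT10, against 20.65 M or more in the others. Most fibroblast markers were high, such as Col1a1 at 1131 ± 81.9 FPKM (SD, n = 23) and Pdgfra at 107 ± 6.46. The lowest of the list were Twist2 at 25.8 ± 3.49 FPKM, Fap at 15.4 ± 3 and Lum at 3.9 ± 1.04. Of the defining markers of other cells, Adgre1 (macrophages), Myod1 (muscle), Cidec (adipocytes) and Tyr (melanocytes) were at 0 in every library, and Cdh5 (endothelium) did not exceed 0.0356 FPKM. Other markers were present: means reached 26.8 FPKM for Cd68, 10.1 for Cd14 and 1.08 for Csf1r of the macrophage list, 28.4 for Lpl, 17.3 for Pparg and 1.64 for Fabp4 of the adipocyte list, 10.6 for Runx2 and 7.31 for Sox9 of cartilage and bone, 3.77 for the keratinocyte marker Cdh1 and 1.51 for the melanocyte marker Pmel. No endothelial or muscle marker averaged 1 FPKM. In the library labelled CT14, the cell cycle inhibitor gene Cdkn1a was at 3.87 FPKM, against 118 ± 12.2 in the 23 others and 4.87 ± 1.12 in wild-type cells at 27 °C (SD, n = 23). The wild-type library labelled CT14 departed the other way, with Cdkn1a at 109 FPKM. Arntl was at 8.01 ± 0.547 FPKM in Bmal1-/- and 4.97 ± 1.22 in wild-type cells (SD, n = 23); gene-level values do not separate exons, so they do not check the deletion.

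Transcripts of the Bmal1-/- cells formed 2 classes in opposite phase, an early class that held splicing regulators and a late class that held inflammatory genes, with matrix genes in both. A cosine of 24 h was fitted to log2(FPKM + 1) beside a line for drift, and a gene was called rhythmic where the limma moderated F test of the cosine had a Benjamini-Hochberg adjusted p under 0.05. Of 12552 genes tested, 605 were called (4.82%), while 2590 had an unadjusted p under 0.05 (20.6%). The early class, with peaks from CT0 to CT12, had 253 genes (2.02% of those tested), a median peak at CT4.91 and quartiles at CT4.05 and CT5.51. The late class, with peaks from CT12 to CT24, had 352 genes (2.8%), a median peak at CT15.9 and quartiles at CT15.5 and CT16.5. Of all tested genes, 43.4% had a fitted peak before CT12 and 56.6% after it. Their peaks leaned the same way as those of called genes but less: 39.8% of called and 29.3% of tested genes peaked from CT2 to CT8, and 55.4% and 32% from CT14 to CT18.

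The swings were small. The amplitude, from mid-level to peak, had a median of 0.19 on the log2 scale in called genes, a 1.29-fold difference between peak and trough, against an amplitude of 0.07 over all tested genes. A difference of at least 2-fold was fitted in 10 called genes and of at least 1.5-fold in 115. Late genes were the more abundant, with a median level of 30.7 FPKM against 12.3 for early genes, and 94.6% of them were protein coding against 84.6% of early genes. Just inside the threshold lay Rraga, Mgll and Gm14326, with adjusted p of 0.04983, 0.04997 and 0.04997, and just outside it Tsc22d1, Pcf11 and Eef1g, each at 0.050005. In bulk RNA, a change of transcripts within cells and a change in the makeup of the culture cannot be told apart.

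**Figure D1:**
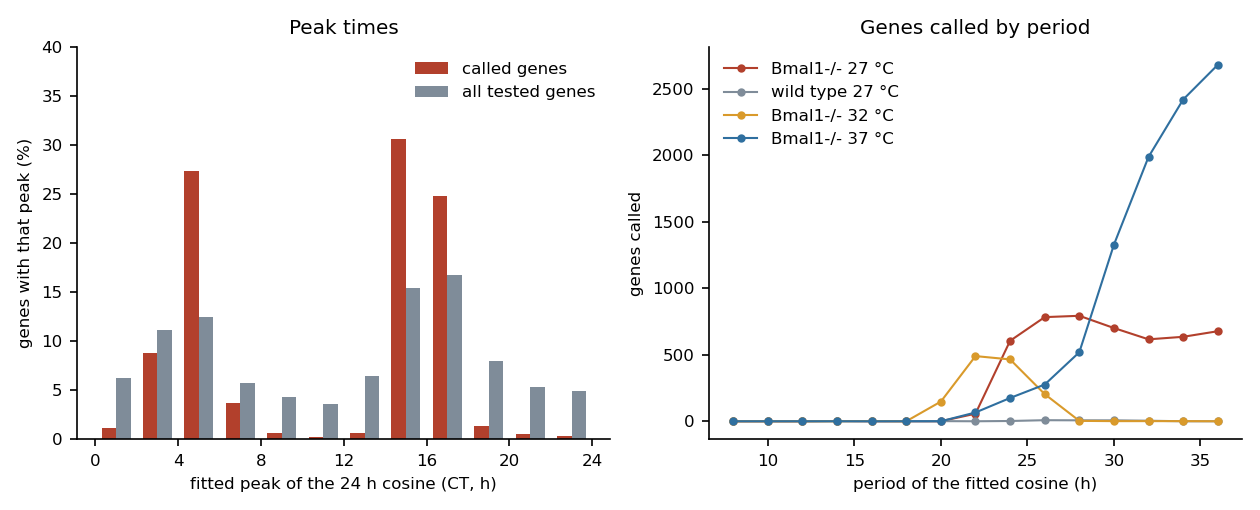
Left, share of genes (%) by fitted peak time in bins of 2 h, for the 605 called genes and all 12552 tested genes of the Bmal1-/- course at 27 °C. Right, number of genes called with cosines of 8 to 36 h in each of the 4 courses; in the Bmal1-/- course at 27 °C it goes from 0 at 20 h to 605 at 24 h and 793 at 28 h.

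Mitochondrial transcripts moved with these classes. Their share of the summed FPKM was 2.01 to 2.95% in the 5 libraries from CT0 to CT8 and 0.99 to 2.15% in the others. A 24 h cosine took 34.4% of the variance of that share, 37.7% of that of the summed FPKM and 37.2% of that of the first principal component, which held 12.8% of the variance of gene levels. With the mitochondrial percent of each library as a covariate, 44 genes were called, 33 of them among the 605, and the fitted peaks of all 605 stayed within 4 h. Of the genes named here, Tcirg1, Galnt15, Crybg1, Plpp3, Clec3b, Ccnl2, Fam20c, Plat, Spry2, Tagln and Rsrp1 were still called in that fit. Without the libraries CT0 to CT6, 247 genes were called, 233 of them among the 605. Leaving out 1 library at a time gave 284 to 740 calls, and the number fell by more than 1.5 times without CT12 (386), CT20 (370), CT26 (284) or CT30 (377). Beyond these fits, the part of mitochondrial share in the result was not tested.

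**Figure D2:**
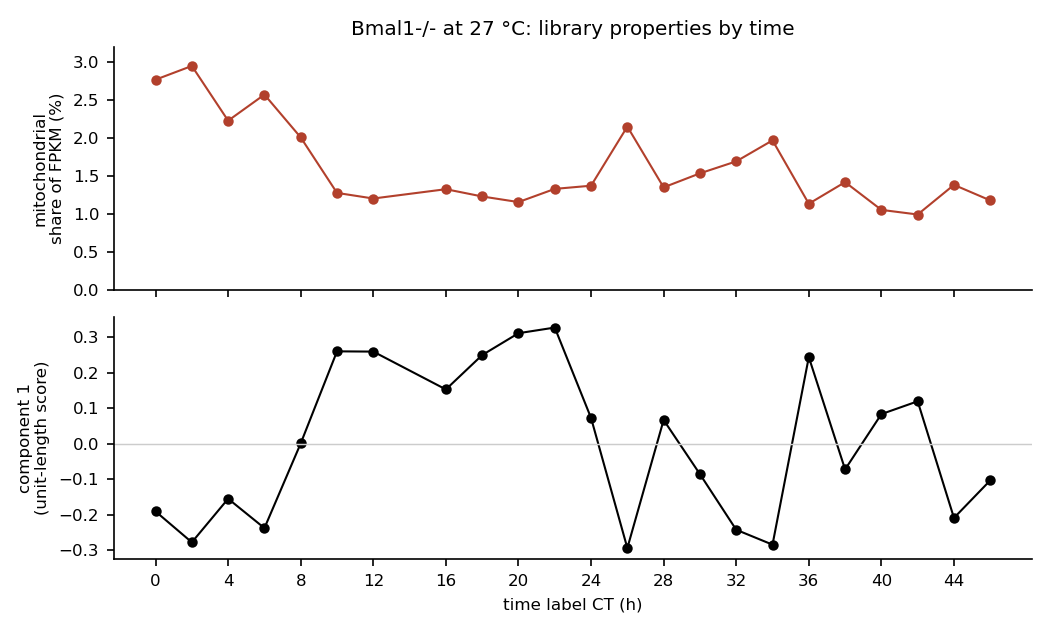
Mitochondrial share of the summed FPKM (%) and score of the first principal component in the 23 libraries of the Bmal1-/- course at 27 °C, against the time label in hours. The share is 2.01 to 2.95% from CT0 to CT8 and reaches 2.15% again at CT26, and the component is high from CT10 to CT22 and less regular in day 2.

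Regulators of splicing peaked early. CLK kinases phosphorylate the SR proteins, which steer the choice of splice sites, and cyclins L1 and L2 (Ccnl1, Ccnl2) are regulatory partners of kinases that act in splicing. Of 6 tested CLK and cyclin L genes, 4 rose and fell with the cycle, all early: Ccnl2, Clk1, Clk4 and Ccnl1. Clk2 and Clk3 had adjusted p = 0.245 and 0.306 in the limma test. The median amplitude of the 6 was 0.26 on the log2 scale. Of 19 SR protein and hnRNP genes, which encode factors that bind pre-mRNA, 6 were called, all early (Srsf1, Tra2a, Srsf10, Hnrnpdl, Srsf7 and Srsf5), with a median amplitude of 0.11 over the list. These 6 are 31.6% of the list, beside 4.82% of all tested genes. All gene lists of this report were chosen with earlier results of these data known. Their shares therefore describe the calls and are no separate support for a class. The fitted peak came before CT12 in 17 of the 19, and in 43.4% of all tested genes. The number called ran from 1 to 7 with 1 library left out: 1 without CT26, 2 without CT20, and 3 without CT18, CT30 or CT32.

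The promoters of 2 early cyclin genes are shown beside those of 2 late genes, Plpp3 and Spry2; all 4 genes were called. Each line gives the 250 bases before the gene start, from RefSeq on GRCm38.p6, and capitals mark a match to a motif that was searched for.
Ccnl2 (chr4:155812239-155812488, plus strand): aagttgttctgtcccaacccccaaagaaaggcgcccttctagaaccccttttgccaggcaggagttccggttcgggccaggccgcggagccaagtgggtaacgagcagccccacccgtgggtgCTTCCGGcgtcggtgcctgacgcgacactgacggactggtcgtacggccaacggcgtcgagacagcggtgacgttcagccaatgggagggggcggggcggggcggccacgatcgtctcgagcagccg
Ccnl1 (chr3:65958250-65958499, minus strand): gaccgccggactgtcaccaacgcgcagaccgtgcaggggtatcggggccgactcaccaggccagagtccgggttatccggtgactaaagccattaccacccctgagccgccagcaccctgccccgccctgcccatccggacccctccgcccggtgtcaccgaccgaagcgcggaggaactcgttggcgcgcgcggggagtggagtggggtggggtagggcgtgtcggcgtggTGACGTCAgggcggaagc
Plpp3 (chr4:105157097-105157346, plus strand): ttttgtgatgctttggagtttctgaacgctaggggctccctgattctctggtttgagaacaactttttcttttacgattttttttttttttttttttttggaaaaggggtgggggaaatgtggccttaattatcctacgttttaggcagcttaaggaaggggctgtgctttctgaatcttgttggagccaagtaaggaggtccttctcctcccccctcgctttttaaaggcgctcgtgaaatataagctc
Spry2 (chr14:105896820-105897069, minus strand): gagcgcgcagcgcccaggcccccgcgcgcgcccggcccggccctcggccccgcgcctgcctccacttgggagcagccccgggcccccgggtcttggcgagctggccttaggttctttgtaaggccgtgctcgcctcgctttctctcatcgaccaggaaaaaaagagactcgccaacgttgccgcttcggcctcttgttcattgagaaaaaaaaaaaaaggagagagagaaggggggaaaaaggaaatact
In Ccnl2 the capitals mark an ETS site, CCGGAAG read on the other strand, and in Ccnl1 a cyclic AMP response element (CRE), TGACGTCA. Clk4 also had a CRE match before its RefSeq start (chr11:51262864-51263113), a stretch that lies inside the gene range given below. Plpp3 and Spry2 had no match to any of the motifs searched. These promoters are examples and do not stand for their classes. The CRE was present in 6.81% of early and 2.02% of late genes, and the ETS site in 19.37% and 10.08%.

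Ccnl2 (chromosome 4, 155812489 to 155824543, GRCm38) ran from 19.7 FPKM at CT16 to 38.4 at CT4, with a median of 26.1. Every library from CT2 to CT8 and from CT24 to CT34 was at 30.7 FPKM or more, and every other was at 27.5 or less. These time ranges, and those given for Clk1, Tcirg1 and Galnt15, were drawn after the values were seen. For Ccnl2 they differ between the days: CT0 (22.9 FPKM) and CT10 (27.5) were low, while CT24 (34) and CT34 (35.2) were high. The amplitude was 0.38 ± 0.052 (log2, SE), with a peak at CT5.34 and limma adjusted p = 0.00243. Clk1 (chromosome 1, 58410189 to 58424066) ran from 45.8 FPKM at CT12 to 103 at CT26, with a median of 66.5. At the same times it was at 73.7 FPKM or more, and at 71.2 or less at all others, with an amplitude of 0.44 ± 0.072 and a peak at CT5.34 (limma adjusted p = 0.00347). Clk4 (chromosome 11, 51261730 to 51281766) ran from 23.1 FPKM at CT44 to 56.3 at CT2, with a median of 39.4, and peaked at CT5.38 with an amplitude of 0.31 ± 0.067 (limma adjusted p = 0.0208). Ccnl1 ran from 15.5 FPKM at CT44 to 32.7 at CT4, with a median of 24.9, and peaked at CT4.93 with an amplitude of 0.21 ± 0.051 (limma adjusted p = 0.0378).

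Fitted to each day apart, Ccnl2 peaked at CT5.11 in day 1 and 6.07 h into day 2, with amplitudes of 0.39 and 0.19 (limma adjusted p of the difference between days 0.71). For Clk1 these peaks were at 5.23 and 6.26 h, and the amplitudes 0.39 and 0.15 (limma adjusted p of the difference 0.77). The calls of the list depend on the libraries used: Clk1 and Ccnl2 were called without CT0 to CT6, and Ccnl2 and Clk2 with the mitochondrial percent as covariate. None of the 19 SR protein and hnRNP genes was called by limma in either of these fits.

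**Figure D3:**
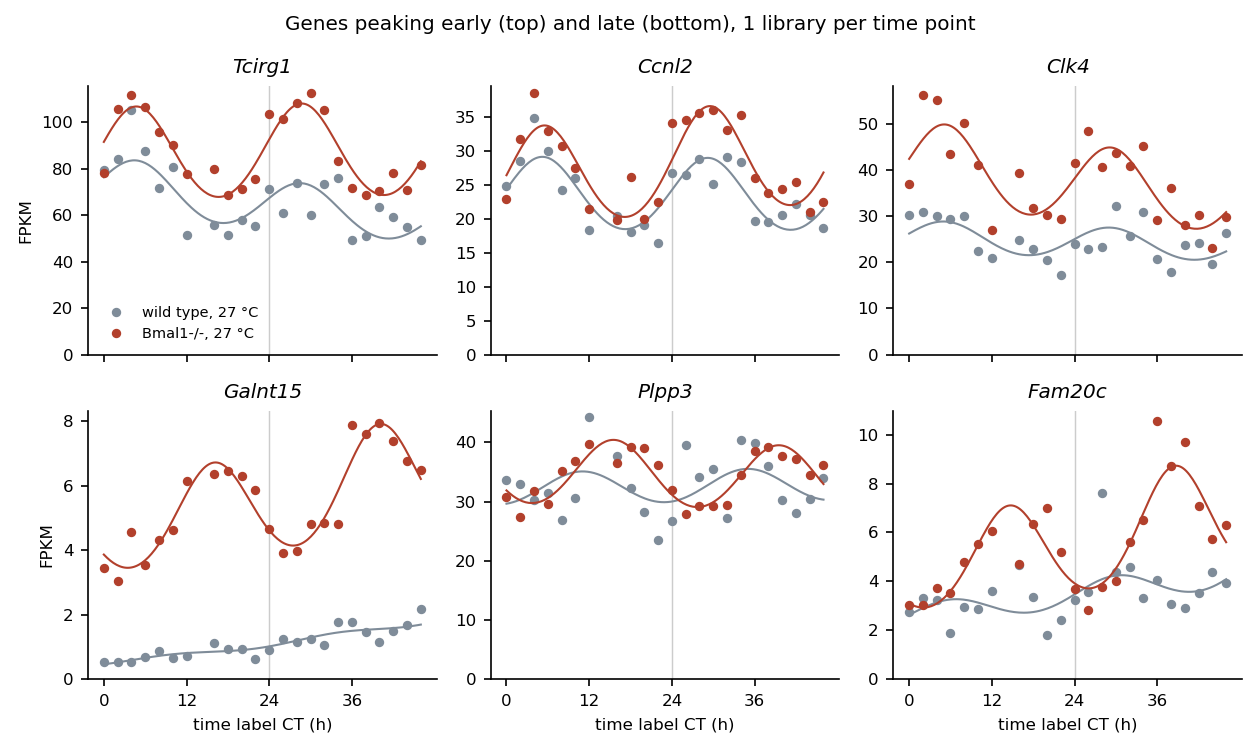
FPKM against time label (h) for the early genes Tcirg1, Ccnl2 and Clk4 and the late genes Galnt15, Plpp3 and Fam20c, with 1 point per library and the fitted cosine plus line as a curve, in Bmal1-/- (red) and wild-type (grey) cells at 27 °C. Ccnl2 crests near CT5 and again a day later in both genotypes, and Galnt15 runs from 3.04 to 7.96 FPKM in Bmal1-/- cells with crests late in each day.

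Tcirg1 (chromosome 19, 3896050 to 3907133), which encodes a subunit of the proton pump that acidifies lysosomes, had the smallest p of all genes. It ran from 68.6 FPKM at CT18 to 112 at CT30, with a median of 81.6. Every library from CT2 to CT8 and from CT24 to CT32 was at 95.5 FPKM or more, and every other was at 90.1 or less, with CT0 low and CT24 high. The amplitude was 0.33 ± 0.036 (log2, SE), with a peak at CT4.68 and limma adjusted p = 0.000464. Rsrp1, which encodes a protein rich in arginine and serine, ran from 57.5 FPKM at CT42 to 175 at CT4, with a median of 89.4, and peaked at CT5.38 with an amplitude of 0.51 ± 0.081. Uba7, the activating enzyme gene of the ubiquitin-like protein ISG15, ran from 4.01 FPKM at CT44 to 14.7 at CT24, with a median of 7.8, and peaked at CT4.75 with an amplitude of 0.52 ± 0.11. The long non-coding RNA gene Snhg20 peaked at CT5.61 with an amplitude of 0.46 ± 0.089.

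Some early genes of matrix and contractile function peaked nearer to CT3. Tnc, which encodes the matrix protein tenascin C, ran from 12.5 FPKM at CT40 to 47.3 at CT2, with a median of 20.8, and peaked at CT2.82 with an amplitude of 0.41 ± 0.06 (log2, SE). Tagln, which encodes the actin-binding protein transgelin, ran from 51.6 FPKM at CT38 to 164 at CT2, with a median of 87.9, and peaked at CT2.99 with an amplitude of 0.28 ± 0.044. Both also drifted downward, with all 6 libraries from CT36 to CT46 below every earlier one. Peg3, an imprinted zinc finger gene, peaked at CT3.77 with an amplitude of 0.45 ± 0.065, and Cilp, a cartilage matrix gene, at CT3.22 with 0.49 ± 0.073. Of 13 tested targets of the SRF and YAP factors, 6 were called: Tagln, Cnn1 and Myl9 early, and Ccn1, Srf and Acta2 late. The list was thus divided between the classes, with a median amplitude of 0.14. Its 6 calls are 46.2% of the list, beside 4.82% of all tested genes, and ran from 3 to 6 with 1 library left out.

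All 7 tested genes of the mitochondrial genome, which encode subunits of the respiratory chain, had a fitted peak between CT3.88 and CT4.11, and 2 were called (28.6%, beside 4.82% of all tested genes). With 1 library left out the number ran from 0 to 6: 6 without CT28, and 0 without CT6, CT12, CT18, CT20, CT26, CT32 or CT42. The 2 called were mt-Nd1, which ran from 729 FPKM at CT42 to 2528 at CT2, with a median of 1057 and had an amplitude of 0.38 ± 0.089 (log2, SE), and mt-Cytb, with an amplitude of 0.32 ± 0.078. Of 24 nuclear genes of the respiratory chain none was called by limma, and 1 had an unadjusted p under 0.05.

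Galnt15, Plpp3, Crybg1 and Clec3b were among the late genes with the smallest p. Galnt15 (chromosome 14, 32028989 to 32062197), of the enzyme family that starts O-linked sugar chains, ran from 3.04 FPKM at CT2 to 7.96 at CT40, with a median of 4.85. Every library from CT12 to CT22 and from CT36 to CT46 was at 5.87 FPKM or more, and every other was at 4.85 or less. The amplitude was 0.34 ± 0.043 (log2, SE), with a peak at CT15.8 and limma adjusted p = 0.00134. Plpp3 (chromosome 4, 105157347 to 105232764), a lipid phosphate phosphatase gene, ran from 27.4 FPKM at CT2 to 39.7 at CT12, with a median of 35.1, and peaked at CT15.6 with an amplitude of 0.22 ± 0.029. Crybg1, a gene of the crystallin beta-gamma domain family, ran from 8.6 FPKM at CT26 to 13.8 at CT12, with a median of 10.4, and peaked at CT14.9 with an amplitude of 0.20 ± 0.026 (limma adjusted p = 0.00134). Clec3b, which encodes the secreted protein tetranectin, ran from 1.44 FPKM at CT2 to 9.13 at CT36, with a median of 5.31. It peaked at CT15.1 with an amplitude of 0.55 ± 0.071, a 2.13-fold difference between peak and trough. Its level also drifted upward, so that 5 of the 6 libraries from CT36 to CT46 were above 7.23 FPKM, the highest of day 1.

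Fam20c, which encodes a kinase of secreted proteins, ran from 2.84 FPKM at CT26 to 10.5 at CT36, with a median of 5.51, and peaked at CT14.4 with an amplitude of 0.46 ± 0.063 (log2, SE). Plat, which encodes tissue plasminogen activator, ran from 50.5 FPKM at CT26 to 87.2 at CT10, with a median of 64.5, and peaked at CT15.2 with an amplitude of 0.21 ± 0.029. Adm, the gene of the peptide hormone adrenomedullin, ran from 9.7 FPKM at CT2 to 31.7 at CT12, with a median of 18.3, and peaked at CT15.2 with an amplitude of 0.54 ± 0.088. Its amplitude was 0.57 in day 1 and 0.33 in day 2, and the difference between the days had adjusted p = 0.374 by limma. Spry2, an inhibitor of receptor tyrosine kinase signalling, ran from 20.5 FPKM at CT28 to 34.8 at CT18, with a median of 28.1, and peaked at CT15.9 with an amplitude of 0.26 ± 0.037.

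Among NF-kB and inflammation genes, 6 of 13 tested were called, all late: Saa3, Nfkbia, Ccl2, C3, Ccl7 and Nfkb2. The median amplitude of the list was 0.14, and 12 of the 13 had a fitted peak after CT12, beside 56.6% of all tested genes. The 6 calls are 46.2% of the list, beside 4.82% of all tested genes, and ran from 4 to 7 with 1 library left out. Saa3, an acute phase gene, ran from 13.3 FPKM at CT26 to 39.1 at CT20, with a median of 24, and peaked at CT16 with an amplitude of 0.50 ± 0.081 (log2, SE). Ccl2, a chemokine gene that draws monocytes, ran from 9.6 FPKM at CT0 to 33.1 at CT40, with a median of 16.7, and peaked at CT16.3 with an amplitude of 0.34 ± 0.061. Fitted by day, the amplitude of Ccl2 was 0.04 in day 1 and 0.39 in day 2, and the difference between the days had adjusted p = 0.516 by limma. Nfkbia, which encodes the inhibitor that holds NF-kB in the cytoplasm, peaked at CT15.9 with an amplitude of 0.17 ± 0.03, and the complement gene C3 at CT16.1 with 0.34 ± 0.064. Nfkbia, C3, Ccl2 and Saa3 were called without CT0 to CT6, and no gene of the list was called by limma with the mitochondrial percent as covariate. The 7 macrophage markers summed to 26.1 to 53.9 FPKM, most of it Cd68 at 26.8 ± 6.72 (SD, n = 23), with Adgre1 at 0 and none of the 3 tested markers called.

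Matrix genes were divided between the classes. Of 20 tested collagen and matrix genes, 5 were called: Fbn1, Dcn and Lum late, Tnc and Postn early. They are 25% of the list, beside 4.82% of all tested genes, and the number ran from 3 to 8 with 1 library left out. Fbn1 (chromosome 2, 125300594 to 125507993), which encodes the microfibril protein fibrillin 1, ran from 24.2 FPKM at CT2 to 46.2 at CT36, with a median of 37.6, and peaked at CT15.4 with an amplitude of 0.23 ± 0.037 (log2, SE). Its peak was at 15.3 h in both days when each was fitted apart. Dcn, which encodes the proteoglycan decorin, ran from 885 FPKM at CT2 to 1752 at CT42, with a median of 1310.5, and peaked at CT15.8 with an amplitude of 0.25 ± 0.04. Of 10 matrix proteases and inhibitors, Mmp2, Timp2 and Mmp14 were called late and the collagenase gene Mmp13 early. These calls are 40% of the list and ran from 2 to 5 with 1 library left out. Mmp2, which encodes gelatinase A, ran from 700.2 FPKM at CT2 to 1488 at CT42, with a median of 1075, and peaked at CT16.5 with an amplitude of 0.21 ± 0.04. No gene of these 2 lists was called by limma with the mitochondrial percent as covariate. Some markers of the culture were called. Of the 12 fibroblast markers, these were Dcn, Lum and Twist2, all late (25%). Dcn and Lum are already counted above among the matrix genes. The number ran from 2 to 7 with 1 library left out. The sum of the 12 ran from 10988 to 14331 FPKM. Among markers of other cells, Cdh1, Fabp4, Lpl and Sox9 were called late. They were 1 of 1 tested keratinocyte marker, 2 of 3 adipocyte markers and 1 of 2 markers of cartilage and bone.

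Other lists had 1 call each, to be read beside the 4.82% of all tested genes. Those called late were the glucocorticoid target Tsc22d3 (7.69% of its list), the p53 target Cdkn1a (7.14%), the interferon-induced gene Ifit2 (7.14%), the ETS factor gene Ets2 (7.14%), the chaperone gene Hspa8 (6.67%), the sterol enzyme gene Dhcr7 (5%), Adm on the list of hypoxia and glycolysis (5%), the proteasome gene Psmd2 (4.55%) and the catalase gene Cat (4.35%). Those called early were the desaturase gene Scd2 of fatty acid synthesis (7.14%) and Srsf5, which is also on the short list of cold-inducible genes (20% of 5). Tsc22d3, which encodes the protein GILZ, ran from 40.3 FPKM at CT26 to 56.2 at CT10, with a median of 47.1, and peaked at CT14.4 with an amplitude of 0.14 ± 0.022 (log2, SE), and all 13 tested glucocorticoid targets had a fitted peak after CT12, beside 56.6% of all tested genes. Of 13 TGF-beta and BMP targets, Tgfbi and Tgfb2 were called, both late, and of 13 immediate early genes Jund and Myc, which is 15.4% of either list. Of 23 ribosomal protein genes, 2 were called (8.7%), Rpl10 (early) and Rps19 (late). The reads of Rpl10, Rps19 and Hspa8 may be shared with near-identical copies, so their values are uncertain. None of 20 unfolded protein response genes was called by limma (2 at an unadjusted p under 0.05), none of 19 genes of S phase and mitosis (0) and none of 5 replication histone genes (0).

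No clock gene was called rhythmic. Of 30 tested, limma called 0, beside 4.82% of all tested genes. With so few genes called in all, 0 of 30 is not read as a result about clock genes. An unadjusted p under 0.05 was found in 11 of them (36.7%, beside 20.6% of all tested genes). Their median amplitude was 0.07 on the log2 scale, as over all tested genes. Among the activators, Arntl ran from 7.08 FPKM at CT10 to 9.26 at CT0, with a median of 7.91, with an amplitude of 0.05 ± 0.027 and adjusted p = 0.437 by limma. Its paralog Arntl2 ran from 5.55 FPKM at CT16 to 13.4 at CT32, with a median of 8.55, with an amplitude of 0.25 ± 0.079 and adjusted p = 0.139. Clock had adjusted p = 0.227 and Npas2 0.172 in the limma test.

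Among the repressors, Per1 ran from 28.7 FPKM at CT0 to 44.1 at CT16, with a median of 35, with an amplitude of 0.07 ± 0.047 (log2, SE) and limma adjusted p = 0.589. Per2 ran from 1.06 FPKM at CT18 to 4.38 at CT34, with a median of 1.38, and 2 libraries far apart in phase, CT2 at 3.34 FPKM and CT34 at 4.38, stood above the rest, which did not exceed 2.48. Cry1 ran from 31 FPKM at CT2 to 44.4 at CT44, with a median of 40, with an amplitude of 0.08 ± 0.031 and limma adjusted p = 0.241, and was called when the line for drift was left out. The REV-ERB gene Nr1d1 ran from 9.37 FPKM at CT6 to 13.8 at CT10, with a median of 12.1, with an amplitude of 0.13 ± 0.045 and limma adjusted p = 0.165. The output gene Dbp ran from 6.84 FPKM at CT44 to 10.1 at CT10, with a median of 8.06, with an amplitude of 0.06 ± 0.032 and limma adjusted p = 0.437. Tspan4, a tetraspanin gene on the list of clock outputs, had the smallest adjusted p of the 30, 0.0571, and was called with arrayWeights and when CT8, CT16, CT22, CT28 or CT34 was left out; Arntl2 was called without CT40. By the same limma test, no clock gene was called among 29 in wild-type cells at 27 °C, 29 in Bmal1-/- cells at 32 °C and 27 at 37 °C. Of all genes tested in these courses, 0.0157%, 3.66% and 1.4% were called. With 0.0157% of genes called in wild-type cells, the absence of calls among clock genes there shows nothing about genotype.

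**Figure D4:**
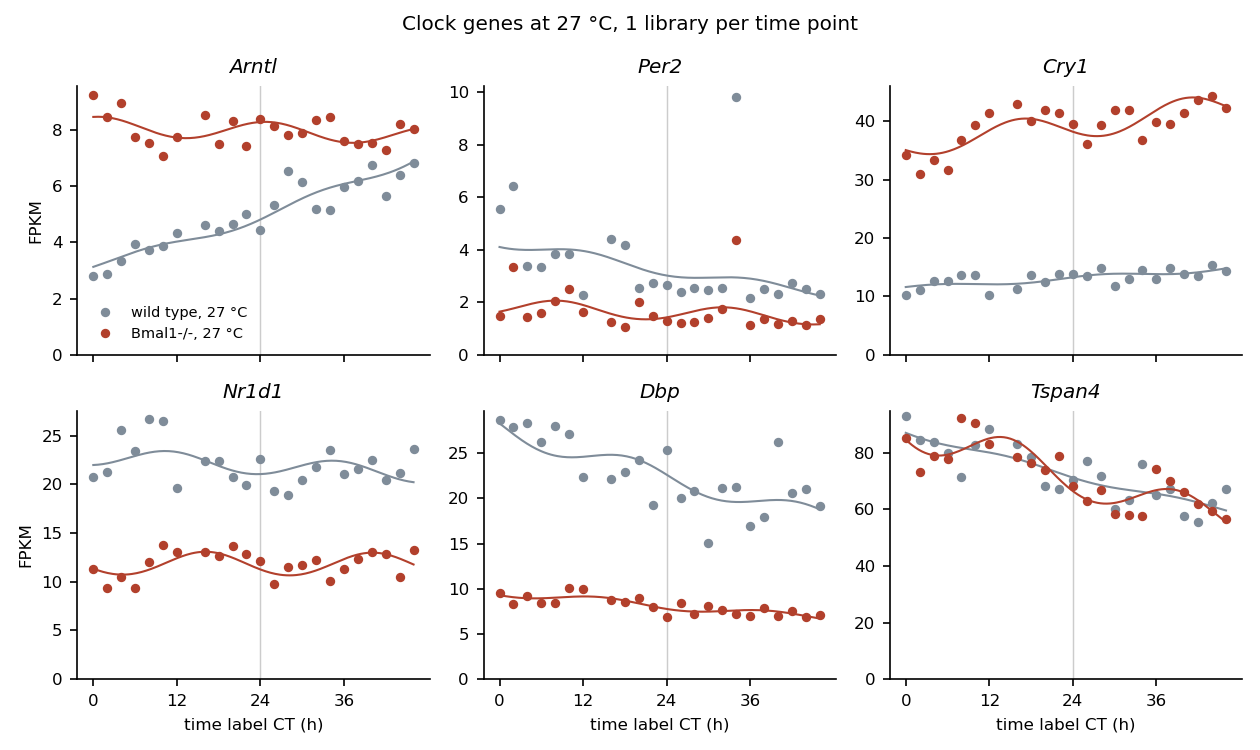
FPKM against time label (h) for Arntl, Per2, Cry1, Nr1d1, Dbp and Tspan4 in Bmal1-/- (red) and wild-type (grey) cells at 27 °C, with 1 point per library and the fitted cosine plus line as a curve. Arntl stays between 7.08 and 9.26 FPKM in Bmal1-/- cells, and none of the 6 genes was called in either genotype.

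The sampled 46 h did not fix the period sharply. With cosines of other periods, limma called 0 genes at 20 h, 57 at 22 h, 783 at 26 h, 793 at 28 h and 677 at 36 h. In wild-type cells the largest number at any period was 8, at 26 h, and in Bmal1-/- cells at 32 °C it was 490, at 22 h. At 37 °C the number grew up to the longest period, with 2680 at 36 h. Given a period of its own between 18 and 36 h, the median called gene took 25 h with quartiles at 24 and 26 h, which describes genes chosen with a 24 h cosine. Of all tested genes, 28.7% took the longest period offered and 14.8% the shortest. For the clock genes together the best period was 36 h, the longest offered, where the residual was 0.806 of that of the line alone, against 0.839 at 24 h. All tested genes had residuals of 0.812 at 36 h and 0.834 at 24 h. The best period of the clock genes moved between 24.25 and 36 h as single libraries were left out (24.25 h without CT34).

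Genes picked in day 1 came back at the same clock time in day 2 in a smaller share than all genes, and genes picked in day 2 in a larger share. In 12519 genes with values in both, each day was fitted apart, and limma called 0 genes in either, with 1617 (12.9%) at an unadjusted p under 0.05 in day 1 and 951 (7.6%) in day 2. Of the 1617 day 1 genes, 435 peaked within 4 h of the same clock time in day 2, or 26.9% against 33.1% of all genes. Of the 951 day 2 genes, 382 had peaked within 4 h in day 1, or 40.2%. At an unadjusted p under 0.05 in both days stood 118 genes, of which 39 (33.1%) had peaks within 4 h. Over the 11 clock times shared by the days, the correlation of a gene's days had a median of -0.09 in day 1 genes and -0.04 in all genes. It was 0.27 in the 605 called genes, which were chosen on both days together and so say nothing apart. Single libraries moved the share of day 1 genes: it was 38.9% without CT16, where all genes had 39.8%, and 37.1% without CT34, where all genes had 37.2%.

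**Figure D5:**
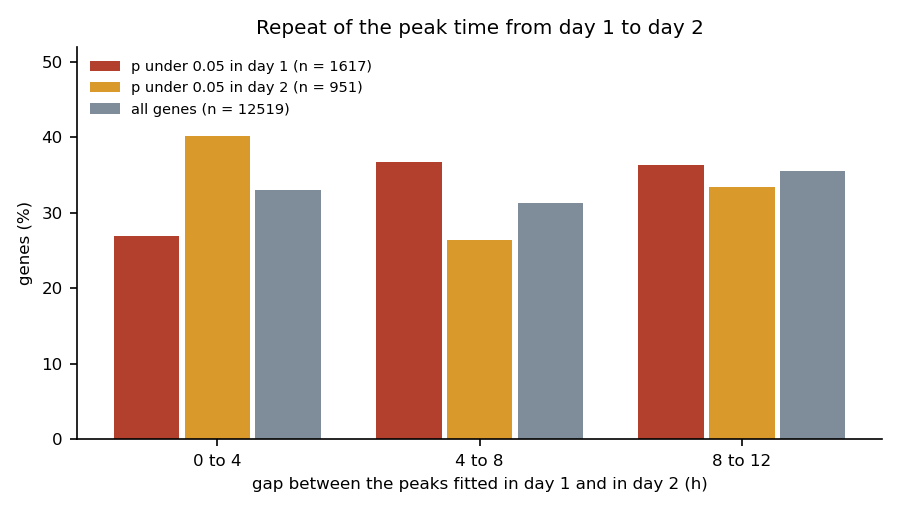
Share of genes (%) by the gap between the peaks fitted in day 1 and in day 2, in bands of 4 h, for 1617 genes with p under 0.05 in day 1, 951 in day 2 and all 12519 genes. Of day 1 genes 26.9% lie within 4 h, of day 2 genes 40.2% and of all genes 33.1%.

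Tested directly, the rhythm differed between the days in 2 genes (0.0159%, with 1378 at an unadjusted p under 0.05), neither among the 605. The test finds few differences of the size seen here. In simulated courses with a rhythm in day 1 only, it called 8.96% of genes with an amplitude of 0.25, 49.3% at 0.5 and 92.4% at 1. The small count therefore does not show that the days agree. The 2 genes were named after their values were seen. They are Rn7sk, the small nuclear RNA that holds the elongation factor P-TEFb, and Pigyl, both at limma adjusted p = 0.0492. Rn7sk ran from 2.74 to 26.3 FPKM and had a fitted peak at CT5 in day 1 and 16.1 h into day 2. It has many copies in the genome and no long poly(A) tail, so its value in poly(A) libraries is uncertain.

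Wild-type cells at 27 °C had 2 genes called of 12769 (0.0157%). They were Ogt, which encodes the enzyme that attaches O-GlcNAc to proteins, with a peak at CT6.09, and Wsb1, at CT5.47, both of them also called in Bmal1-/- cells. The difference between the Bmal1-/- and wild-type courses was tested directly by limma. It passed in 8 genes of 12854 (0.0622%), while 1188 had an unadjusted p under 0.05. The 8 genes were Galnt15, Crybg1, Peg3, Cilp, Fbn1, Slit3, Bmper and Glul, all called in Bmal1-/- cells. For 2 of these the wild-type level was under 1 FPKM, where the scale leaves little room for an amplitude, with Peg3 at 0.00617 FPKM against 10.7 in Bmal1-/- cells and Crybg1 at 0.893 against 10.5. Fbn1 was expressed in both, at 72 FPKM in wild-type and 36.1 in Bmal1-/- cells, with amplitudes of 0.08 and 0.23 on the log2 scale. The axon guidance gene Slit3, at 24.5 and 75.5 FPKM, had amplitudes of 0.05 and 0.27, and the glutamine synthetase gene Glul, at 43.7 and 28.4 FPKM, had 0.10 and 0.29. The number of genes that differed was 24 without CT16 and 5 without CT12, CT20 or CT26. It was 0 with the time label as replicate block, a fit chosen after seeing the data. Each genotype is 1 course, and the labels do not give the number of cell preparations. Genotype and cell preparation therefore cannot be told apart.

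Most early genes had a like peak time in the other courses, whose libraries had no part in choosing them. In wild-type cells, 182 of 242 early genes (75.2%) peaked within 4 h of their time in Bmal1-/- cells at 27 °C, beside 42.4% of all genes with a peak before CT12. At 32 °C it was 73.4% beside 39%, and at 37 °C 80.1% beside 42.6%. For late genes it was 49.8% beside 40.8% in wild-type cells, 47.7% beside 42.2% at 32 °C and 64.4% beside 52.2% at 37 °C. Ccnl2 peaked at CT5.22 in wild-type cells, CT5.57 at 32 °C and CT5.25 at 37 °C, with amplitudes of 0.31, 0.44 and 0.49 and limma adjusted p = 0.0563, 5.79e-06 and 0.00154. Clk1 peaked at CT5.71, CT5.43 and CT5.26, with limma adjusted p = 0.0563, 7.01e-05 and 0.00232. Tcirg1 peaked at CT4.88, CT5.54 and CT5.42, with limma adjusted p = 0.324, 0.000194 and 0.0431. Not all early genes kept their time. In the same order of courses, Tagln had fitted peaks at CT19.9, CT19.6 and CT20.1, and Cilp at CT16.8, CT17.9 and CT20.6. Tnc had them at CT4.98, CT18.1 and CT23, and Peg3 at CT3.17 at 32 °C and CT5.31 at 37 °C. None of these genes was called there.

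Within the Bmal1-/- genotype, several leading genes, late and early, passed a test for a rhythm that differed from the course at 32 or 37 °C. At 32 °C 465 genes were called (3.66%), 106 of them shared, which is 17.9% of the 593 called genes tested there and 22.8% of the 465. At 37 °C 175 were called (1.4%), 63 of them shared, 10.8% of 584 and 36% of 175. The rhythm differed from that at 32 °C in 260 genes (2.05%), 187 of them among the 605, and from that at 37 °C in 47 (0.373%), 35 of them among the 605. These tests share the 23 libraries at 27 °C, and each temperature is 1 course. The 605 genes and the leading genes were chosen for a rhythm in the libraries at 27 °C. That choice favours a smaller amplitude in the other courses. The counts within the 605 and the values of the leading genes are therefore no separate support for a difference. Plpp3 had an amplitude of 0.22 at 27 °C, 0.01 at 32 °C and 0.07 at 37 °C, with limma adjusted p of the difference 0.00155 and 0.00745. Fam20c had 0.46, 0.07 and 0.05 (0.00155 and 0.00669 by limma), and Plat 0.21, 0.02 and 0.06 (0.00156 and 0.0185). The mean level of Plpp3 at these temperatures was 34.2, 54.8 and 76.3 FPKM. Early genes were divided. Ccnl2 had adjusted p = 0.832 and 0.853 for these differences by limma, Clk1 0.997 and 0.872, and Tcirg1 0.634 and 0.507. Cilp passed both, at 0.00155 and 0.0263 by limma. Tnc (0.0175 and 0.488), Peg3 (0.0187 and 0.119) and Tagln (0.0367 and 0.238) passed against 32 °C only. The number of genes that differed from 32 °C was 116 without CT26, 140 without CT20, 145 without CT18, 463 without CT16 and 464 without CT28, and that from 37 °C was 28 without CT26, 30 without CT28, 31 without CT18 or CT20 and 114 without CT16.

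Promoter sequence was described for 191 of the 253 early genes, 248 of the 352 late genes and 8777 of the tested genes that matched the RefSeq table. Motifs were searched on both strands of the 250 bases before the start. The CRE (TGACGTCA) was present in 6.81% of early, 2.02% of late and 3.04% of tested genes, beside 1.77% of all genes in the table. The ETS site (CCGGAAG) was present in 19.37% of early, 10.08% of late and 16.69% of tested genes, beside 7.83% of the table. The E-box of CLOCK and BMAL1 (CACGTG) was present in 9.42% of early, 8.47% of late and 10.16% of tested genes, beside 6.86%, and the D-box of DBP, TEF and HLF (TTANNTAA) in 5.24% of early, 4.84% of late and 3.91% of tested genes, beside 6.3%. The ROR element was found in 1 early and 0 late genes, beside 0.35% of tested genes and 0.58% of the table, and the heat shock element in 0 of both, beside 0.43% and 0.51%. These shares were not tested.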

How the data were processed

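The 47631 genes of the deposited table were given by the authors as FPKM. Per the submitters' processing notes, TopHat2 2.1.0, TopHat, Cuffdiff and the GRCm38 build were used. Per the labels' protocols, libraries were stranded, single-end and from poly(A) RNA. No source used here records further steps. Gene names came from GENCODE (47217 identifiers matched). Libraries were grouped by their labels, and both libraries labelled CT14 at 27 °C were left out.

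Values were fitted as log2(FPKM + 1), for genes whose mean reached 1 FPKM, with limma 3.58.1 in R 4.3.3 (trend in eBayes), on cosine, sine and linear time, and p-values were adjusted over all genes tested. Differences between courses or days were tested as interactions. Own periods were sought from 18 to 36 h in steps of 0.25 h. Low FPKM values gave the depth, with 95.4% of 2799 values within 0.15 of whole reads. Scripts were tested on simulated data. Genes named were the tested clock genes, the 12 with the smallest p, the 12 called with the largest amplitude and up to 3 called genes per list, leaving out predicted genes, pseudogenes and small RNAs; other list members are named where their list is counted. Members and lists were chosen with earlier results of these data known. Alternatives were another pseudocount (0.1), filters (above 0, at least 5), scaling, drift terms, periods, limma options and libraries left out; the mitochondrial covariate, extra periods, the time label as block, and fits without CT0 to CT6 or CT36 and CT38 were chosen after seeing the data.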

Additional observations from a re-analysis of the deposited data

Results flagged for a closer look

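Rhythms that differed between courses in a direct limma test are given here by the adjusted p of the difference. The genes named here were chosen for a rhythm in Bmal1-/- cells at 27 °C, whose libraries these tests use again. Against wild-type cells at 27 °C, 8 genes differed, and among the named genes the values were 0.00594 for Peg3 and for Crybg1, 0.0158 for Fbn1, and 0.0272 for Cilp and for Galnt15. Against Bmal1-/- cells at 32 °C, 260 genes differed, with 0.00155 for Plpp3, Fam20c and Cilp, 0.00156 for Plat and 0.00200 for Crybg1. Against 37 °C, 47 genes differed, with 0.00669 for Galnt15 and Fam20c, 0.00745 for Plpp3, 0.0185 for Plat and 0.0198 for Crybg1. Between day 1 and day 2 of the course, 2 genes differed. Cilp was at 44.8 FPKM in wild-type and 2.11 in Bmal1-/- cells at 27 °C, and Galnt15 at 1.1 and 5.47, so these differences come with a difference in level, whose part in the result was not tested. Peg3 and Crybg1 averaged 0.00617 and 0.893 FPKM in wild-type cells, and Galnt15 0.604 FPKM at 37 °C. They entered these tests only through their level in Bmal1-/- cells at 27 °C and have no rhythm fit of their own in the course where they are low.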

How the results depend on the processing

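The number of rhythmic genes, 605, was 622 with a pseudocount of 0.1, 606 with median-of-ratios scaling, 556 with a filter of 5 FPKM, 761 with a quadratic drift term, 590 without the intensity trend and 565 without CT36 and CT38. It moved further, to 379 with every gene above 0 FPKM tested, 1064 without the linear term, 1314 with arrayWeights, 161 with the library labelled CT14 kept, 247 without CT0 to CT6 and 44 with the mitochondrial percent as covariate. Cosines of 8, 10, 12, 16, 18 and 20 h gave 0 calls by limma, 14 h gave 2 and 22 h gave 57. Leaving out 1 library gave 284 to 740 calls.

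Genes that differed from wild-type cells numbered 4 with the pseudocount of 0.1, 20 without the linear term, 1 with CT14 kept and 5 to 24 with 1 library left out. Against 32 °C they numbered 136 with every gene above 0 FPKM, 407 with a quadratic term, 39 with CT14 kept and 116 to 464 with 1 library left out. Against 37 °C they numbered 24, 91 and 11 under those settings, 164 without the linear term and 28 to 114 with 1 library left out. The day difference was found in 0 genes with every gene above 0 FPKM or with CT14 kept, and in 0 to 4 with 1 library left out.

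The common period of the clock genes was 25.5 h without the linear term or with CT14 kept, 29 h with a quadratic term and 24.25 to 36 h with 1 library left out; the median period of called genes was 24.5 to 25.25 h with 1 library left out. The share of day 1 genes that peaked within 4 h in day 2 was 21.6% without CT0 to CT6, beside 22.7% of all genes in that setting. With 1 library left out it ran from 21.7% without CT26, beside 30.6% of all genes, to 38.9% without CT16, beside 39.8%. It was 40.2% when genes were chosen in day 2, beside 33.1%. Within 2 h it was 11.8%, beside 16.7%. With CT14 kept, the peaks of 5 named genes moved to the other side of the cycle, with amplitudes of 0.112 for Crybg1, 0.346 for Cdkn1a, 0.0632 for Lpl, 0.0703 for Mmp13 and 0.0811 for Hspa8. Fewer libraries or more genes tested lower some of these counts by construction; otherwise the cause was not tested. Replicate numbers follow the time label, and nothing in the labels says that libraries of different courses with the same label share a culture or batch. Residuals of same-label libraries were correlated across genes, each taken from the cosine and line of its own course. The median was -0.01 with wild-type cells, -0.01 with 32 °C and 0.00454 with 37 °C, and the highest were 0.136, 0.0849 and 0.23. Of 23 labels, 2, 0 and 4 exceeded 0.1. An effect shared by courses that follows the cosine is removed by these fits, so the residuals cannot show it. With the time label as replicate block, a fit chosen after seeing the data, limma found 0 genes that differed from wild-type cells (1189 at an unadjusted p under 0.05), 201 from 32 °C, 164 of them among the 260, and 37 from 37 °C, 29 of them among the 47. Genes under 1 FPKM have little room for an amplitude on this scale, and depth was 13.49 to 26.3 M reads.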
